A study of Mus musculus with 24 samples.

Results

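The 10 genes described here are the BCL-2 family genes *Bcl2*, *Bcl2l1*, *Mcl1*, *Bcl2l11*, *Bid*, *Bad*, *Bak1*, *Bok*, *Bmf* and *Pmaip1*, taken by their symbols from the 25229 genes of the count table. Of these, 9 were among the 12941 genes that passed the filter on low counts and were tested, and *Pmaip1* was not. They were measured in ID8 *Trp53*-/- cells, a mouse ovarian cancer line in culture that lacks *Trp53* in every group (labelled ID8 P53 KO). Cells received the vehicle DMSO, cisplatin at 750 nM, AU-15330 at 2.5 μM, or both drugs, for 6 days, with 6 replicates in each of the 4 groups. Cisplatin is a DNA cross-linking chemotherapeutic. AU-15330 is a PROTAC that directs SMARCA4 and SMARCA2, the motor subunits of the SWI/SNF chromatin remodelers, to the proteasome, so the mRNAs of its targets do not check the labels. The libraries held 17592588 to 25260009 reads counted on genes. Nothing in the labels says that replicates were separate cultures, so p-values measure the spread between these libraries, which may be technical.

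BCL-2 family proteins decide at the outer mitochondrial membrane whether a cell enters apoptosis. The survival proteins BCL-2, BCL-xL (encoded by *Bcl2l1*) and MCL-1 bind and restrain the pore-forming proteins BAK, BAX and BOK, although BOK is restrained less readily, and the BH3-only proteins BIM (*Bcl2l11*), BID, BAD, BMF, PUMA (*Bbc3*) and NOXA (*Pmaip1*) act as triggers, either by occupying the survival proteins or by activating the pore formers. Many senescent cells depend on BCL-2 and BCL-xL, which senolytic drugs such as navitoclax block, and granzyme B from natural killer cells cleaves BID. Transcript levels say nothing of the cleavage, phosphorylation or turnover by which several of these proteins are regulated.

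The genes with the widest ranges between groups were *Bmf*, *Bok* and *Bid*. Their promoter windows and that of *Bad*, the other BH3-only member that was higher with AU-15330, are shown so that the DNA before each start can be read beside the values. Each holds the 250 bases before a RefSeq gene start on GRCm38.p6, 5′ to 3′ on the gene's strand, and for *Bmf* and *Bad*, which have further starts, the outermost was taken. These starts differ in part from the GENCODE positions given below for each gene. In the *Bid* window 29 bases, and in the *Bmf* window 1 base, lie in a GENCODE exon of the gene. The *Bok* window ends at 93685574, and the GENCODE gene starts at 93685660. Capitals mark matches to the GC box GGGCGG, the SP1-type motif, on either strand.
Bok, chr1:93685325-93685574, plus strand: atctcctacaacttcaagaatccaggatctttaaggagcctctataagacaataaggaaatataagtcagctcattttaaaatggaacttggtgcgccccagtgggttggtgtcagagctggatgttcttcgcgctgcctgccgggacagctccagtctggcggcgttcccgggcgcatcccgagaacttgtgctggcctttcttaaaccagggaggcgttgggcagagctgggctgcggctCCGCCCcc
Bmf, chr2:118549687-118549936, minus strand: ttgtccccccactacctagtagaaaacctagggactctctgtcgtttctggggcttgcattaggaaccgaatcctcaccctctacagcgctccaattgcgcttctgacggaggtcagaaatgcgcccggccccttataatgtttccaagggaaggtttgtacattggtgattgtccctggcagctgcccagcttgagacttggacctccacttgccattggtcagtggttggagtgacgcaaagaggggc
Bid, chr6:120916825-120917074, minus strand: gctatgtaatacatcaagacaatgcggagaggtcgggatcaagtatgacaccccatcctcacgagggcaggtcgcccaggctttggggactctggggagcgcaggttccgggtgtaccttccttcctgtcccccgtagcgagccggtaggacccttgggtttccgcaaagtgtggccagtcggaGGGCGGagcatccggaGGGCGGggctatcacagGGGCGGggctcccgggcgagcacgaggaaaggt
Bad, chr19:6941611-6941860, plus strand: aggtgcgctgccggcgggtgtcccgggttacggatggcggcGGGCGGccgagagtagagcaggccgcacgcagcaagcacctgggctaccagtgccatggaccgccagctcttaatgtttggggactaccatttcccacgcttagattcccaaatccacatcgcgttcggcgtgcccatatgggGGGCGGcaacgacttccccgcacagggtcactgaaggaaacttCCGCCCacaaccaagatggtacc
The GC box was found once before *Bok*, 3 times before *Bid*, 3 times before *Bad* and 0 times before *Bmf*, and 32.7% of 32841 RefSeq windows of this length held it. In the outermost windows of the other tested members, 7 matches lay before *Bcl2*, 3 before *Bcl2l11* and 1 before *Mcl1*. There were 0 before *Bcl2l1* and *Bak1*. Of these other members *Bak1* rose with AU-15330 and the rest fell. None of the 4 windows held the AP-1 motif TGANTCA, the CRE TGACGTCA, the forkhead motif GTAAACA, the E-box CACGTG or the ISRE (searched by its gapped consensus), which were found in 6.75%, 1.55%, 3.17%, 6.02% and 2.98% of all windows. Among the other tested members, the outermost window of *Bcl2l11* held 1 forkhead match, and no other match to these motifs was found. GC content was 55.2% before *Bok*, 54% before *Bmf*, 63.6% before *Bid* and 62.8% before *Bad*, against a median of 52.4%. It was 74.8% before *Bcl2*, 72% before *Bcl2l11*, 64.4% before *Mcl1*, 58.4% before *Bak1* and 47.6% before *Bcl2l1*. These matches are descriptions of letters and not of binding, and no signal at these promoters was measured.

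AU-15330 alone lowered all 3 survival genes, *Bok*, *Bcl2l11* and *Bmf*, and raised *Bak1*, *Bid* and *Bad*. All 9 tested genes passed the test against DMSO (adjusted p under 0.05, edgeR's quasi-likelihood F test), where 73.4% of all tested genes did, and in all 9 the 6 AU-15330 libraries did not overlap the 6 DMSO libraries, which held for 49.9% of all genes. The median size of the log2 fold change was 1.06 over the 9 genes and 0.54 over all tested genes for AU-15330 against DMSO, 0.91 and 0.45 for both drugs against cisplatin, 0.22 and 0.28 for cisplatin against DMSO, 0.15 and 0.24 for both drugs against AU-15330, and 0.14 and 0.30 for the interaction. Cisplatin alone changed 5 of the 9 against a background of 51.7%: *Mcl1*, *Bak1* and *Bid* rose and *Bcl2l11* and *Bmf* fell. With both drugs, 8 of 9 differed from cisplatin alone (68.1% of all genes), with *Bcl2* the exception, and in those 8 the libraries did not overlap (50.2% of all genes). Against AU-15330 alone the combination changed 5 of 9 (41.7% of all genes), against DMSO 8 of 9 (73.3%), and AU-15330 differed from cisplatin in 8 of 9 (73.1%). In replicates 1 to 3 alone the call was lost for *Mcl1* with both drugs against DMSO (−0.18, adjusted p = 0.111) and for *Bcl2l11* with AU-15330 against cisplatin (−0.13, adjusted p = 0.328). In 2 genes, *Bcl2* and *Bid*, the effect of AU-15330 differed with and without cisplatin (33.7% of all genes). A difference of any kind between the 4 groups was called for all 9 genes and for 90.3% of all tested genes, and the comparisons share libraries. Broad change across the transcriptome was thus the setting of every count given here.

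**Figure D1:**
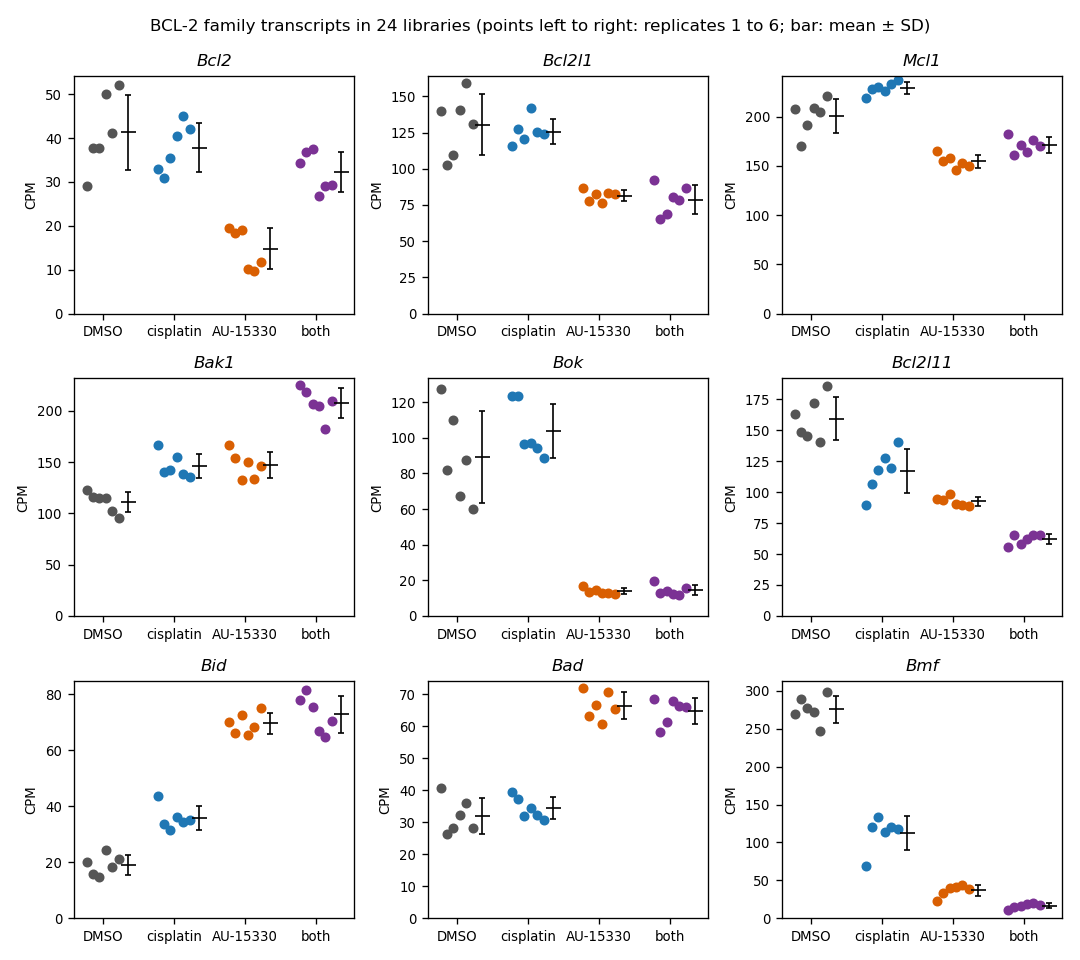
CPM (read counts scaled to TMM-adjusted library size) of the 9 tested genes in the 24 libraries, with a panel for each gene, replicates 1 to 6 from left to right in each treatment, and a bar for the mean ± SD (n = 6). The AU-15330 libraries are set apart from the DMSO libraries in every panel, *Bmf* runs from 247.4–298.8 CPM in DMSO to 10.3–19.8 CPM with both drugs, and *Bcl2* with AU-15330 divides into replicates 1 to 3 and 4 to 6.

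Among the survival genes, *Bcl2* (chromosome 1, 106538178 to 106714274, minus strand) showed a response to AU-15330 that depended on cisplatin. In DMSO its 6 replicates, in order, were at 29.1, 37.7, 37.6, 50.0, 41.2 and 52.0 CPM. With AU-15330 they were at 19.4, 18.3, 19.1, 10.1, 9.81 and 11.7 CPM, all below the lowest DMSO library. With cisplatin they were at 33.1, 30.9, 35.4, 40.4, 45.1 and 42.2 CPM, and with both drugs at 34.3, 36.8, 37.4, 26.8, 29.0 and 29.3 CPM, so those groups overlapped each other and DMSO. The means were 41.3 ± 8.55 CPM in DMSO, 37.8 ± 5.56 with cisplatin, 14.7 ± 4.67 with AU-15330 and 32.3 ± 4.5 with both (SD, n = 6). AU-15330 lowered *Bcl2* by a log2 fold change of −1.48 ± 0.17 (SE, adjusted p = 1.52e-08). In cisplatin-treated cells the same addition gave −0.23 (95% interval −0.57 to 0.11, adjusted p = 0.216). The interaction, the effect of AU-15330 with cisplatin minus that without, was 1.25 on the log2 scale (interval 0.77 to 1.74, adjusted p = 0.000191). Both drugs together left *Bcl2* higher than AU-15330 alone, by 1.13 (adjusted p = 6.97e-06), and at −0.36 from DMSO (interval −0.70 to −0.02, adjusted p = 0.0516).

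The *Bcl2* values also followed the replicate numbers. Replicates 4 to 6 were all above replicates 1 to 3 in DMSO and in cisplatin, and all below them with AU-15330 and with both drugs. No other member was divided in this way in all 4 groups, and 163 of the 12941 tested genes were (1.26%), 11 of them in the directions seen for *Bcl2* or their mirror image. Within single groups such a division was common, from 2453 genes with both drugs to 4213 (32.6%) with AU-15330, and the labels give no batch for it. In a fit of replicates 1 to 3 alone, chosen after these values were seen, the effect of AU-15330 on *Bcl2* was −0.88 without cisplatin (adjusted p = 2.37e-05) and 0.10 with it (adjusted p = 0.508). In replicates 4 to 6 alone it was −2.19 without cisplatin (adjusted p = 2.67e-11) and −0.61 with it (adjusted p = 1.91e-05). The comparison of both drugs with DMSO likewise gave 0.02 in replicates 1 to 3 (adjusted p = 0.900) and −0.80 in replicates 4 to 6 (adjusted p = 1.18e-06). The interaction was positive in both, at 0.98 (adjusted p = 0.00189) and 1.58 (adjusted p = 4.43e-07). The call for both drugs against DMSO or cisplatin thus depended on the replicates used, and the interaction was called in each set.

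**Figure D2:**
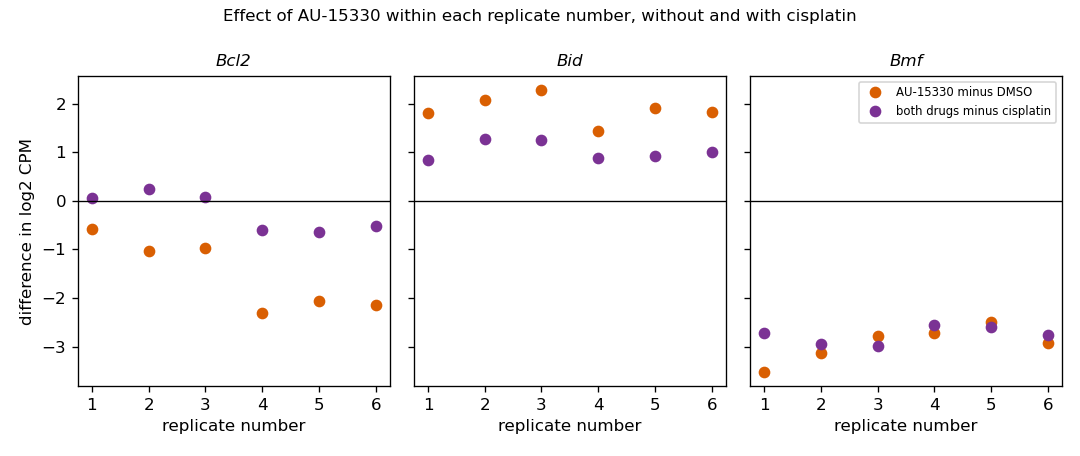
Difference in log2 CPM between libraries of the same replicate number for *Bcl2*, *Bid* and *Bmf*, as AU-15330 minus DMSO (orange) and both drugs minus cisplatin (purple). The labels do not say that a number marks a shared culture. For *Bcl2* the orange points lie between −0.58 and −2.30 and the purple points between −0.64 and 0.25, for *Bid* every purple point lies below the orange point of its number, and for *Bmf* the colors mix.

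*Bcl2l1*, which encodes BCL-xL (chromosome 2, 152780668 to 152831728, minus strand), fell with AU-15330 both without and with cisplatin. The lowest, median and highest libraries were at 102.9, 135.4 and 159.4 CPM in DMSO and at 115.8, 124.6 and 141.7 CPM with cisplatin. They were at 76.2, 82.5 and 87.1 CPM with AU-15330 and at 65.2, 79.7 and 92.1 CPM with both drugs. Every library with AU-15330 was below every library without it. The log2 fold change was −0.68 against DMSO (SE 0.09, adjusted p = 3.06e-07) and −0.68 against cisplatin when both were given (SE 0.09, adjusted p = 3.97e-07). Cisplatin itself gave −0.05 (interval −0.24 to 0.14, adjusted p = 0.654), and the interaction was 0.00 (interval −0.27 to 0.27).

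*Mcl1* (chromosome 3, 95658788 to 95663176, plus strand), whose product is short-lived, had the narrowest range among the tested members. Its lowest, median and highest libraries were at 170.4, 206.4 and 221.2 CPM in DMSO, 219.1, 229.6 and 236.8 CPM with cisplatin, 145.4, 154.0 and 165.6 CPM with AU-15330, and 161.5, 170.6 and 182.8 CPM with both drugs. Cisplatin and DMSO overlapped, and AU-15330 stood below both. *Mcl1* rose by 0.19 with cisplatin (adjusted p = 0.00647) and fell by 0.38 with AU-15330 (adjusted p = 1.64e-06). Adding AU-15330 to cisplatin gave −0.42 (adjusted p = 3.35e-07). The increase with cisplatin missed the threshold within replicates 1 to 3 (0.25, adjusted p = 0.0572) and within replicates 4 to 6 (0.12, adjusted p = 0.0681). Both drugs against AU-15330 alone gave 0.15 (adjusted p = 0.0405), a call that was lost in 5 of the 6 fits that left out a replicate.

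**Figure D3:**
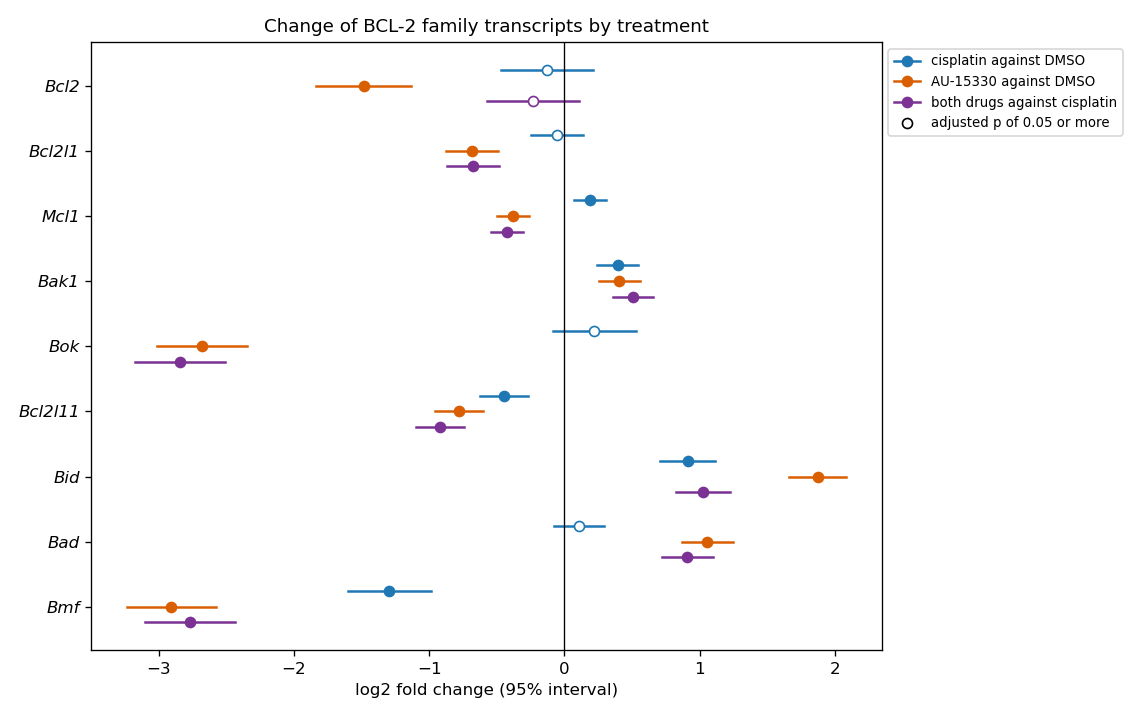
Log2 fold change of the 9 tested genes with 95% interval for cisplatin against DMSO, AU-15330 against DMSO and both drugs against cisplatin. Filled points passed an adjusted p of 0.05 (edgeR) and open points did not. For *Bcl2* the AU-15330 point is at −1.48 and the point for both drugs at −0.23 with an interval that spans 0, while for the other 8 genes neither interval does.

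Of the pore-forming members, *Bak1* rose with each drug and further with both. BAK sits in the outer mitochondrial membrane and forms pores there once released. The gene (chromosome 17, 27019810 to 27029009, minus strand) was at 95.6, 115.2 and 122.8 CPM in the lowest, median and highest DMSO libraries. It was at 135.0, 141.1 and 166.6 CPM with cisplatin, at 132.7, 148.2 and 166.6 CPM with AU-15330, and at 182.6, 208.3 and 225.1 CPM with both. The single-drug groups lay above DMSO and overlapped each other, and the combination lay above all. The log2 fold changes from DMSO were 0.39 with cisplatin (adjusted p = 6.33e-05), 0.41 with AU-15330 (adjusted p = 1.95e-05) and 0.90 with both (SE 0.07, adjusted p = 2.40e-11), a 1.87-fold increase. The combination exceeded cisplatin by 0.51 (adjusted p = 8.23e-07) and AU-15330 by 0.50 (adjusted p = 4.97e-06). The interaction was 0.10 (interval −0.11 to 0.32, adjusted p = 0.466), so the log2 effects added up within this error. The single drugs differed by 0.01 (interval −0.14 to 0.16).

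*Bok*, the other pore former (chromosome 1, 93685660 to 93695764, plus strand), fell with AU-15330, where *Bak1* rose, and by much more than *Bak1* changed. In replicates 1 to 6 it was at 127.6, 82.0, 110.2, 67.6, 87.7 and 59.9 CPM in DMSO and at 123.5, 123.3, 96.6, 97.2, 94.2 and 88.5 CPM with cisplatin. With AU-15330 it was at 16.9, 13.7, 14.3, 12.9, 13.2 and 12.6 CPM, and with both drugs at 19.8, 12.99, 14.1, 12.4, 11.9 and 15.7 CPM. The lowest library without AU-15330 was thus far above the highest library with it, and the DMSO libraries were the most spread. *Bok* was 6.39-fold lower with AU-15330 than in DMSO (log2 fold change −2.68 ± 0.16, SE, adjusted p = 4.36e-14). With both drugs it was 7.16-fold lower than with cisplatin (−2.84, adjusted p = 1.89e-14). Cisplatin against DMSO gave 0.22 (interval −0.08 to 0.53, adjusted p = 0.211), which passed the test with the replicate number as a block (0.25, adjusted p = 0.0405) and in replicates 4 to 6 alone (0.36, adjusted p = 0.0243). The interaction was −0.17 (interval −0.61 to 0.28, adjusted p = 0.585).

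The BH3-only genes moved in opposite directions. *Bmf*, whose product is held at the cytoskeleton by a dynein light chain until detachment or stress frees it, had the widest range of group means among the members. The gene (chromosome 2, 118528757 to 118549687, minus strand) was at 247.4, 274.3 and 298.8 CPM in the lowest, median and highest DMSO libraries and at 68.8, 118.8 and 133.2 CPM with cisplatin. It was at 23.4, 39.8 and 43.8 CPM with AU-15330 and at 10.3, 16.96 and 19.8 CPM with both drugs. No group overlapped another. The log2 fold change was −1.30 with cisplatin (SE 0.15, adjusted p = 5.26e-08), −2.90 with AU-15330 (SE 0.16, adjusted p = 5.55e-15) and −4.06 with both (SE 0.17, adjusted p = 2.48e-17). The last was a 16.7-fold decrease. Adding AU-15330 to cisplatin gave −2.77 (adjusted p = 2.76e-14) and adding cisplatin to AU-15330 gave −1.16 (adjusted p = 1.27e-06). The interaction was 0.14 (interval −0.30 to 0.58, adjusted p = 0.651).

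*Bcl2l11*, which encodes BIM, a trigger that binds all the survival proteins, fell in the same order and by less. The gene (chromosome 2, 128126038 to 128162547, plus strand) was at 140.6, 156.1 and 185.4 CPM in the lowest, median and highest DMSO libraries and at 89.6, 118.5 and 140.9 CPM with cisplatin. It was at 89.1, 92.1 and 98.4 CPM with AU-15330 and at 55.7, 63.4 and 65.5 CPM with both drugs. Only the cisplatin group overlapped its neighbors, at 1 library on the DMSO side and at 1 library among the AU-15330 values, and the combination lay below the rest. The decreases from DMSO were −0.45 with cisplatin (adjusted p = 8.67e-05), −0.78 with AU-15330 (adjusted p = 6.28e-09) and −1.364 with both (SE 0.09, adjusted p = 1.52e-13). The interaction was −0.14 (interval −0.39 to 0.11, adjusted p = 0.394).

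*Bid*, the link from death receptors and granzyme B to mitochondria, rose in every treated group. The gene (chromosome 6, 120891930 to 120916853, minus strand) was at 19.98, 15.7, 14.9, 24.2, 18.1 and 21.02 CPM in DMSO replicates 1 to 6 and at 43.8, 33.7, 31.4, 36.2, 34.3 and 35.0 CPM with cisplatin. With AU-15330 it was at 70.1, 66.2, 72.4, 65.4, 68.3 and 75.1 CPM, and with both drugs at 78.1, 81.4, 75.3, 66.7, 64.7 and 70.6 CPM. The cisplatin group lay between DMSO and the AU-15330 groups without touching either, and the AU-15330 groups overlapped each other. The log2 fold change was 0.91 with cisplatin (SE 0.10, adjusted p = 2.40e-08) and 1.87 with AU-15330 (SE 0.10, adjusted p = 4.37e-15), a 3.66-fold increase. In cisplatin-treated cells AU-15330 added 1.03 (adjusted p = 5.10e-10). The interaction was −0.85 (interval −1.13 to −0.56, adjusted p = 3.40e-05). Adding cisplatin to AU-15330 gave 0.07 (interval −0.13 to 0.26, adjusted p = 0.612). The interaction was −0.97 (adjusted p = 0.00581) in replicates 1 to 3 alone and −0.80 (adjusted p = 0.000159) in replicates 4 to 6 alone.

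*Bad*, whose product binds BCL-2 and BCL-xL unless phosphorylated by growth-factor signaling, rose with AU-15330 in both backgrounds. The gene (chromosome 19, 6941861 to 6951899, plus strand) was at 26.3, 30.2 and 40.7 CPM in the lowest, median and highest DMSO libraries and at 30.6, 33.4 and 39.5 CPM with cisplatin. It was at 60.7, 66.0 and 72.0 CPM with AU-15330 and at 58.1, 66.1 and 68.6 CPM with both drugs. The libraries with and without AU-15330 did not overlap. The log2 fold change was 1.06 against DMSO (SE 0.09, adjusted p = 5.85e-11) and 0.91 for both drugs against cisplatin (SE 0.09, adjusted p = 1.15e-09). Cisplatin gave 0.11 (interval −0.08 to 0.30, adjusted p = 0.325).

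*Pmaip1*, which encodes NOXA, the MCL-1-binding trigger induced by p53, was near the limit of detection and did not pass the filter. It had 0 counts in the 6 DMSO libraries, which allows up to 0.0250 CPM over the group (3 counts, counting error only). The sums over 6 libraries were 9 counts with cisplatin, in 4 libraries, 5 counts with AU-15330, in 4 libraries, and 10 counts with both drugs, in 3 libraries. All of these group means lie below 3 counts in a single library. In the edgeR fit without the filter, over 20428 genes, the adjusted p was 0.0430 for cisplatin, 0.0910 for AU-15330 and 0.0223 for both drugs against DMSO, and in DESeq2 it was 0.104, 0.242 and 0.0668. The call thus depended on the tool, and the AU-15330 group missed the threshold in both.

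Scaled by exon length, the order of the transcripts within the cells differed between treatments. Values here are mean CPM per kilobase of merged GENCODE exons, a level that assumes even coverage of the annotated exons. In DMSO the order was *Mcl1* 58.7, *Bmf* 52.4, *Bok* 48.5, *Bak1* 46.2, *Bcl2l1* 28.5, *Bcl2l11* 19.8, *Bad* 12.5, *Bid* 5.35 and *Bcl2* 4.51. These first 4 genes lay within 1 SD of *Bok* (13.9) of each other, as did *Bid* and *Bcl2* within 1 SD of *Bid* (0.985). With cisplatin the order began with *Mcl1* 67.1, *Bak1* 60.7 and *Bok* 56.5, and *Bmf* was at 21.4 in place 5. With AU-15330 it began with *Bak1* 61.1, *Mcl1* 45.2, *Bad* 26.0 and *Bid* 19.6, with *Bok* at 7.57, *Bmf* at 7.01 in place 8 and *Bcl2* at 1.61. With both drugs the order was *Bak1* 86.3, *Mcl1* 50.1, *Bad* 25.3, *Bid* 20.5, *Bcl2l1* 17.2, *Bok* 7.87, *Bcl2l11* 7.71, *Bcl2* 3.52 and *Bmf* 3.14. *Bok* and *Bcl2l11* lay within 1 SD of *Bok* (1.59), and *Bcl2* and *Bmf* within 1 SD of *Bmf* (0.649). Among the 9 tested members *Bmf* was thus in place 2 in DMSO and in place 9 with both drugs, and *Bak1* in places 4 and 1.

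**Figure D4:**
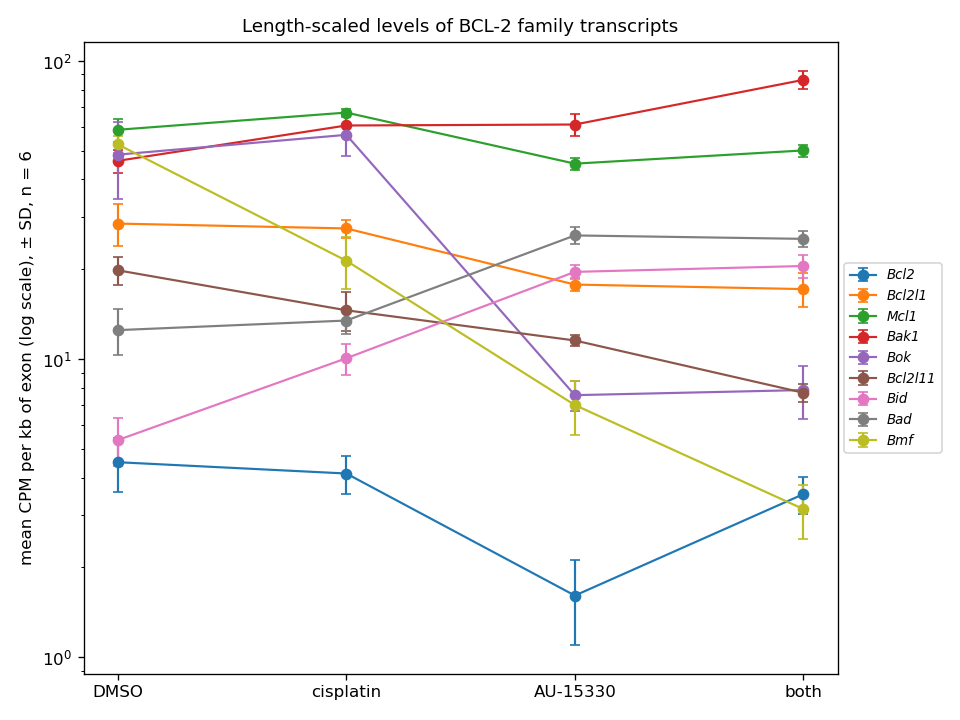
Mean CPM per kilobase of exon (log axis) of the 9 tested genes in the 4 groups, with error bars for the SD (n = 6) and lines that join a gene's points. *Bmf* and *Bok* drop from about the level of *Mcl1* and *Bak1* in DMSO to 3.14 and 7.87 with both drugs, while *Bid* and *Bad* rise to 20.5 and 25.3.

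Over the 24 libraries, the log2 CPM of *Bmf* was most like that of *Eef2k* (Pearson r = 0.986), *Ccar2* (0.984) and *Ephb6* (0.984). For *Bok* the most alike were *Csnk1e*, *Perp* and *Sh3glb2* (each 0.993), and for *Bid* they were *Dpp7* (0.985), the RNA sensor gene *Tlr3* (0.981) and *Mapk11* (0.980). The 24 points share 4 treatments, so these correlations largely describe group differences.

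Of the pathway around the members, 48 further genes were listed by role and 40 were tested. AU-15330 raised 19 and lowered 16 of these 40, where 36.2% of all genes rose and 37.2% fell. Cisplatin raised 10 and lowered 8 (26.0% and 25.7% of all genes). Adding AU-15330 to cisplatin raised 16 and lowered 14 (35.4% and 32.7%). The interaction was called for 13 of the 40 (33.7% of all genes), a number that ran from 7 to 14 when 1 replicate number was left out, with 7 without replicate 4 and 8 without replicate 5. It was 3 in replicates 1 to 3 alone, where 1701 of 13008 genes were called.

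Among the other BCL-2 family genes, 7 of 15 were tested, and AU-15330 raised 1 and lowered 5 (36.2% and 37.2% of all genes). The gene that rose was *Bbc3*, which encodes the BH3-only trigger PUMA, from a mean of 18.2 CPM in DMSO to 39.4 CPM (log2 fold change 1.11, adjusted p = 1.17e-07). Cisplatin lowered it to 14.2 CPM (−0.36, adjusted p = 0.0389), and adding AU-15330 to cisplatin raised it to 33.0 CPM (1.22, adjusted p = 3.51e-08). *Bax*, which encodes the pore former most like BAK, was at 53.7 CPM in DMSO, 50.0 with cisplatin (−0.10, adjusted p = 0.446) and 63.0 with AU-15330 (0.23, adjusted p = 0.0575). With both drugs it reached 75.9 CPM, a rise of 0.60 over cisplatin (adjusted p = 2.32e-05). *Bnip3l*, a mitophagy receptor gene, fell with cisplatin (−0.71, adjusted p = 7.34e-07) and with AU-15330 (−0.56, adjusted p = 8.69e-06). *Bcl2l14* was low, with sums of 39 counts in DMSO, 194 with cisplatin, 1 with AU-15330 and 4 with both drugs. It rose with cisplatin (2.06, adjusted p = 2.19e-06) and was near the limit of detection with AU-15330, alone or with cisplatin.

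In the list of apoptosome, caspase and inhibitor genes, 18 of 18 were tested, and with AU-15330 8 rose and 8 fell (36.2% and 37.2% of all genes). *Apaf1*, the apoptosome scaffold, fell from 23.4 to 9.71 CPM (−1.27, adjusted p = 1.05e-09). With both drugs against cisplatin, *Dffb*, a DNA-cutting nuclease gene, fell by 1.14 (adjusted p = 2.14e-08) and *Casp6* fell by 0.95 (adjusted p = 2.11e-10). Cisplatin raised 4 and lowered 5 of the 18, near the shares of all genes (26.0% and 25.7%). Survivin (*Birc5*), which also serves in cell division, rose from 8.94 to 61.4 CPM (2.79, adjusted p = 6.14e-09), *Birc3* rose by 0.54 (adjusted p = 6.30e-06) and *Endog* fell by 0.91 (adjusted p = 9.65e-05).

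In the death receptor arm, which leads to BID cleavage, 9 of 9 genes were tested and AU-15330 raised 6 and lowered 1 (36.2% and 37.2% of all genes). The receptor gene *Tnfrsf10b* rose from 6.68 to 13.9 CPM (1.05, adjusted p = 7.24e-08) and *Tnfrsf1a* fell from 175.6 to 105.2 CPM (−0.74, adjusted p = 7.79e-12). *Fas* was low throughout, at 0.217 CPM in DMSO and 0.702 with AU-15330 (1.67, adjusted p = 0.00523), and reached 1.37 CPM with cisplatin (2.62, adjusted p = 5.13e-05). The adaptor *Fadd* rose by 0.80 (adjusted p = 9.95e-08) and *Tnfrsf10b* by 1.02 (adjusted p = 9.99e-08) when AU-15330 was added to cisplatin. The ligand gene *Tnfsf10* had 248 counts over the 6 cisplatin libraries and 3, 3 and 5 counts over the DMSO, AU-15330 and combination libraries.

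All 6 genes for proteins that set the stability of MCL-1 or hold BIM and BMF passed the test with AU-15330, 4 higher and 2 lower, where 73.4% of all tested genes passed (36.2% higher and 37.2% lower). *Usp9x*, a deubiquitinase of MCL-1, rose from 220.9 to 756.2 CPM (1.77, adjusted p = 2.24e-08). *Huwe1*, a ubiquitin ligase of MCL-1, rose from 472.8 to 693.1 CPM (0.55, adjusted p = 0.00444), and *Dynll2*, the dynein light chain gene whose product binds BMF, rose from 242.5 to 390.8 CPM (0.69, adjusted p = 8.99e-05). In 3 of the 6 the AU-15330 and DMSO libraries did not overlap, which held for 49.9% of all genes. They did overlap for *Huwe1* (571.8–764.9 against 307.7–645.3 CPM) and *Dynll2* (231.1–458.7 against 153.8–308.3 CPM). With both drugs against cisplatin *Usp9x*, *Huwe1* and *Dynll2* rose by 1.43, 0.50 and 0.79. Cisplatin changed 1 of the 6, the ligase gene *Marchf5* (0.25, adjusted p = 0.0195), where 51.7% of all tested genes were called.

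**Figure D5:**
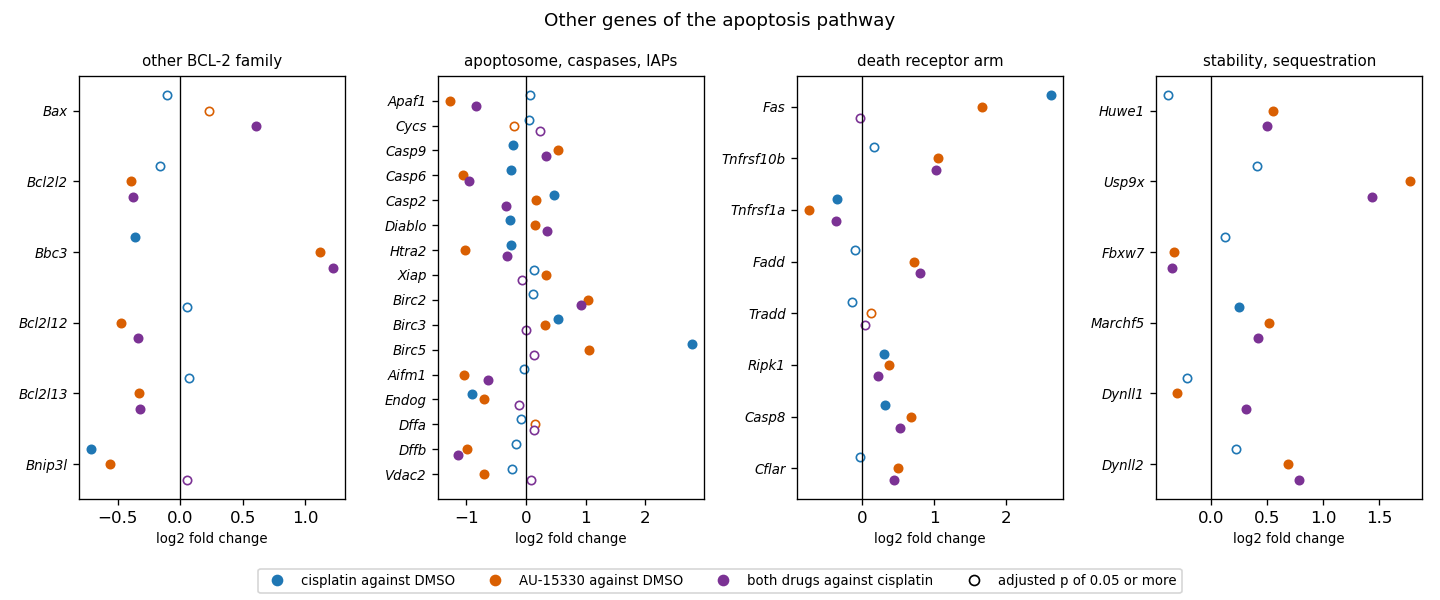
Log2 fold change of 36 tested pathway genes in 4 panels by role, for cisplatin against DMSO, AU-15330 against DMSO and both drugs against cisplatin, with open points where the adjusted p (edgeR) was 0.05 or more. *Bcl2l14* and *Tnfsf10* are left out because a group held at most 18 counts over its 6 libraries, and 2 further tested genes are not reported here. *Apaf1* lies at −1.27 with AU-15330 and *Birc5* at 2.79 with cisplatin.

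Several measured features moved with the treatments beside the results above. All 9 genes of an epithelial and mesothelial marker list were detected, and their summed level was 3534 to 5350 CPM in DMSO, 4280 to 4964 with cisplatin, 1019 to 1152 with AU-15330 and 1225 to 1407 with both drugs. *Krt19* fell from a mean of 1783 to 7.01 CPM with AU-15330. With cisplatin the mean of *Krt19* was 1403 CPM, while *Krt8* went from 336.9 to 546.5 CPM, *Upk3b* from 45.3 to 197.4 CPM and *Upk1b* from 27.8 to 94.1 CPM, so the steady sum hides opposite shifts. The summed level of 6 immune markers rose from 6.46–18.97 CPM in DMSO to 16.7–53.0 CPM with AU-15330 and 23.9–42.3 CPM with both drugs, against 6.81–13.2 CPM with cisplatin. Nearly all of it was *Cd68*, while the pan-leukocyte gene *Ptprc* was at most 0.309 CPM in any library. The summed level of 3 endothelial markers was 2.87–4.28 CPM in DMSO, 8.24–12.5 CPM with cisplatin, 0.261–0.715 CPM with AU-15330 and 0.483–1.10 CPM with both, most of it *Pecam1*. The sum of 3 muscle markers was 5.195–8.60, 6.90–11.7, 0.522–0.874 and 1.40–1.82 CPM in the same order, most of it *Des*, and 2 erythroid markers were at 0 counts in all libraries. The part of these shifts in the results was not tested. In bulk RNA, fewer cells that express a gene and less RNA per cell cannot be told apart.

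Some members share exon sequence with a gene on the opposite strand, and the sources used here do not state whether reads were counted by strand. The shared part was 20.5% of the exon length of *Bad* (with *Gpr137*), 18.2% and 7.35% of that of *Bak1* (with each of the 2 gene models named *Ggnbp1*), 17.7% of that of *Bid* (with *Bcl2l13*) and 6.09% of that of *Bcl2* (with *D630008O14Rik*). *Bcl2l13* fell with AU-15330 (−0.33, adjusted p = 8.84e-05), opposite to *Bid*. *Gpr137* rose by 0.25 on the log2 scale (adjusted p = 0.0189), in the direction of *Bad* and by less. *Ggnbp1* rose from 3.60 to 6.25 CPM (0.80, adjusted p = 0.000190), in the direction of *Bak1*, by more on the log2 scale and at a far lower level.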

How the data were processed

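RNA of ID8 *Trp53*-/- cells was measured in 24 poly(A)-selected, directional libraries. According to the submitters' processing notes, reads were aligned with STAR 2.7.1a to mm10, and DESeq2 1.36.0 was used for their own tests. The counting tool, annotation and use of strand are not given in the sources used here. The deposited values are raw counts per gene symbol in 48 columns, 2 lanes for each library, which the authors left unnormalized. Each column name gave its treatment and replicate, and 0 columns stayed without a library. The labels' cisplatin concentration was used, which differs from that in the study's methods.

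Lanes were summed (chi-square per degree of freedom 1.36 to 1.46 between lanes, at least 2.26 between replicates, so no library was a copy). The gene-wise tests were made in edgeR 4.0.16 (R 4.3.3), with TMM scaling, filterByExpr, group means for all 24 libraries and the quasi-likelihood F test (20 residual degrees of freedom), and Benjamini-Hochberg adjustment over 12941 genes. Log2 CPM used a prior count of 2. The scripts were tested on simulated data. Alternatives were DESeq2 1.42.0, other scalings, no filter, a replicate block, a fold threshold and leaving out replicates. Library totals of 17592588 to 25260009 put 3 counts at 0.120 to 0.186 CPM.

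The 10 members, the pathway and marker lists and the tests were chosen with earlier results of these data known. All members were named, with *Bax*, *Bbc3* and, in each pathway list and comparison, the 3 largest changes among called genes, and the 3 most alike genes (Pearson r) of the 3 members with the widest range of group means. Results of some genes that this rule names are not reported here, and they are left out of the plot of pathway genes. Other genes were named after their values were seen (*Gpr137*, *Ggnbp1*, *Bcl2l13*, *Krt19*, *Krt8*, *Upk3b*, *Upk1b*, *Pecam1*, *Des*, *Cd68*, *Ptprc*), and so were the motifs searched. Gene positions and exon lengths are from GENCODE on mm10 and promoters from RefSeq on GRCm38.p6, in which all printed windows were matched by symbol.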

Additional observations from a re-analysis of the deposited data

Results flagged for a closer look

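*Bmf* in cisplatin replicate 1, at 68.8 CPM, lay apart from the other 5 cisplatin libraries at 113.5 to 133.2 CPM, with a gap that took 0.693 of the group's range. Over 36 groups of libraries searched this was the single such case, where chance gives about 1.8. Without replicate 1 the effect of cisplatin on *Bmf* was −1.21 on the log2 scale (adjusted p = 1.25e-11, edgeR). The effects of AU-15330 with and without cisplatin differed on the log2 scale for *Bcl2*, by 1.25 (adjusted p = 0.000191), and for *Bid*, by −0.85 (adjusted p = 3.40e-05). For *Bcl2* the effect was −1.48 without and −0.23 with cisplatin, and for *Bid* it was 1.87 without and 1.03 with cisplatin.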

How the results depend on the processing

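Leaving aside the fits of replicates 1 to 3 or 4 to 6 alone, added after the data were seen, 660 log2 fold changes of members under an alternative kept direction and call, 8 lost the call, 7 gained it and 18, none of them called before, changed sign, and none moved by more than 0.19. A required fold change above 1.5 lowered the members called to 6 for AU-15330 and 6 for both drugs against DMSO (4657 and 4683 of all 12941 genes), 2 for cisplatin against DMSO (1789), 5 for both drugs against cisplatin (3803), 2 for both against AU-15330 (842), 5 for AU-15330 against cisplatin (4723) and 1 for the interaction (926), and the pathway genes called to 4 for cisplatin, 16 for AU-15330, 12 for both against cisplatin and 0 for the interaction. Leaving out a replicate gave 7 to 14 pathway genes with an interaction (3265 to 4627 of all genes, 4361 with every replicate), and replicates 1 to 3 alone gave 3 (1701). The signs that changed were *Bak1* for AU-15330 against cisplatin (−0.005 with DESeq2 size factors and with DESeq2, −0.015 to 0.029 without a replicate), the *Bcl2l1* interaction (−0.026 with DESeq2 size factors, −0.056 with total counts, −0.024 with DESeq2, −0.009 without the filter, −0.018 with the block, −0.092 to 0.102 without a replicate, −0.202 in replicates 1 to 3), *Bcl2l1* with cisplatin (0.017 with total counts, −0.117 to 0.010 without a replicate, 0.044 in replicates 1 to 3), *Bok* for both against AU-15330 (−0.029 to 0.082 without a replicate), the *Mcl1* interaction (0.014 without replicate 2, 0.034 in replicates 4 to 6), *Bcl2* in replicates 1 to 3 for both against cisplatin (0.097) and against DMSO (0.019), and, in replicates 4 to 6, *Bad* with cisplatin (−0.001) and *Bid* for both against AU-15330 (−0.079). *Bcl2* with both drugs against DMSO passed the test with DESeq2 size factors (−0.37, adjusted p = 0.0399), in DESeq2, without the filter and without replicate 1 (−0.51, adjusted p = 0.00751), 2 or 3, and over its alternatives, the fits of replicates 1 to 3 or 4 to 6 alone aside, the adjusted p ran from 0.00751 to 0.231. *Mcl1* with both drugs against DMSO missed it with total counts (−0.09, adjusted p = 0.182). The causes were not tested. Total counts without scaling factors moved the median of all genes from −0.003 to 0.126 for AU-15330 against DMSO, from 0.039 to 0.104 for both against cisplatin and from −0.001 to 0.139 for both against DMSO, and moved the share of calls that were higher from 50.2% to 61.1% for cisplatin and from 53.0% to 41.7% for the interaction.

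Deviations from the group means correlated at a mean of 0.145 between same-numbered libraries and −0.0269 between others. All 6 pairs of AU-15330 and combination libraries were above 0.1, the lowest at 0.101, and so were taken as paired. The main tests used group means without this pairing, which entered only the fit with the replicate block. In the other 5 pairings of groups 2 to 5 of 6 were, the lowest pair was at −0.133, and the numbers were not taken to pair the libraries. In all, 10 of 24 libraries correlated best with their own number. With the replicate number as a block, *Bok* rose with cisplatin (0.25, adjusted p = 0.0405), pathway genes with an interaction numbered 18 against 13 (5303 against 4361 of all genes), and no other call of a member changed, those for both drugs against AU-15330 included. Depth limits *Pmaip1*, with group sums of 0 to 10 counts, whose calls differed between edgeR and DESeq2.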
